A study of Mus musculus with 24 samples.

Results

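Hepcidin and further genes of iron homeostasis were followed through mouse livers that lacked the transcription factors Foxa1 and Foxa2. The set holds the hepcidin genes Hamp and Hamp2, the bone morphogenetic protein ligand Bmp6, the BMP targets Id1 and Smad7, the iron sensors Hfe and Tfr2, the transferrin receptor Tfrc, transferrin (Trf) and the iron exporter ferroportin (Slc40a1). Members were the non-control probes whose gene name in the array files, or whose current symbol in RefSeq, was one of these 10. They came to 13 of 41174 probes and 10 of 19287 genes tested, with 2 probes each for Bmp6, Id1 and Hfe. All 13 probes passed the filter on dim probes, and those that stood for a gene were well above background on all 24 arrays.

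Liver RNA was measured on 24 single-colour Agilent arrays, 4 in each of 6 groups. Female wild type and female double knockout (dKO, Foxa1 and Foxa2) were measured both untreated and treated, and male wild type and male dKO only treated. Treated mice had received diethylnitrosamine (DEN, 20 mg/kg), a liver carcinogen, when 14 to 15 days old, and then 8 injections of TCPOBOP (3 mg/kg) at intervals of 2 weeks. TCPOBOP is a ligand of CAR, a nuclear receptor of hepatocytes, and acts as a tumour promoter in liver. The sources used here do not give the strain, the age at sampling, the Cre driver or the deleted exons. The labels call the tissue liver tumour in all groups, untreated ones included, and do not say that the 4 samples of a group came from separate mice, so the spread behind each p-value may be technical.

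Hepcidin is a peptide hormone that hepatocytes secrete and that binds ferroportin, the only known exporter of iron from cells, and leads to its degradation, so that less iron enters plasma. Its gene is induced by iron, through Bmp6 made largely by liver endothelial cells and through the SMAD proteins it activates in hepatocytes, and by inflammation, through IL-6 and STAT3. Hfe and Tfr2 sense transferrin-bound iron upstream of hepcidin, Tfrc takes up that iron, and Id1 and Smad7 are targets of the same SMAD signal, Smad7 acting as its inhibitor. Mice carry a second hepcidin gene, Hamp2, known for higher expression in female than in male liver.

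The hepcidin genes lie side by side and their probes had to tell them apart, so both are shown. The probe for Hamp maps to chr7:31727490-31727549 and that for Hamp2 to chr7:31707520-31707579 of mm9, both on the minus strand, by the positions in the array files. Capitals mark bases that differ between the aligned probes.
Hamp: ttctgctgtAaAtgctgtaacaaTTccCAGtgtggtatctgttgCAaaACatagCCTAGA
Hamp2: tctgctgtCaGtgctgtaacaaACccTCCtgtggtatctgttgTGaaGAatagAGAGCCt
Of 59 aligned positions 42 were identical and 17 differed. How much of either transcript binds to the other's probe was not tested.

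The promoters of the pair were compared because the genes are close relatives and their levels differed between groups. RefSeq's table (GRCm38.p6) lists a promoter for both, on the minus strand, at chr7:30944030-30944279 for Hamp and chr7:30924182-30924431 for Hamp2. Each sequence is the 250 bases before the gene's start. Capitals mark the letters GGCGCC, the core of a BMP response element, and TTCTTGGAA, an element for STAT factors, both searched on both strands.
Hamp: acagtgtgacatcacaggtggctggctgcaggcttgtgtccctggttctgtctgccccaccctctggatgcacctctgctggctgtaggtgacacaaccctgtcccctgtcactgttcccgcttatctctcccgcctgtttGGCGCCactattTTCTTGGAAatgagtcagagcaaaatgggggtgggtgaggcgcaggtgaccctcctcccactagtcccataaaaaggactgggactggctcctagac
Hamp2: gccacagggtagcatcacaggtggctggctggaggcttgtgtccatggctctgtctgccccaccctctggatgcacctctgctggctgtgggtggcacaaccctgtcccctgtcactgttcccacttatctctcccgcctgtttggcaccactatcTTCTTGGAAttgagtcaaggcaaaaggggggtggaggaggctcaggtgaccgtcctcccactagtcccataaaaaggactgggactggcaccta
The promoters were identical at 227 of 247 aligned positions, or 91.9%. Hamp holds GGCGCC, starting 109 bases before its start. Hamp2 has GGCACC at the aligned place, the substitution G4A counted from the first base of the Hamp hexamer. TTCTTGGAA stands in both. GGCGCC occurs in 9.59% and TTCTTGGAA in 0.37% of the 32851 promoters listed, in windows of the same length. The letters TGTTTAC, a forkhead core found in 3.17% of promoters, are in neither window. A match is a stretch of letters and not evidence of binding.

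Foxa1 was not well above background on any dKO array and was above it on every wild-type array. Foxa2 averaged 3.69 to 4.45 in the wild-type groups and -6.06 to -3.99 in the dKO groups, as log2 signal minus each array's 75th percentile, the scale of all levels here. The arrays thus matched their genotype labels at both targeted genes. The share of spots well above background ran from 50.4% to 68.4%. Replicate 2 of the treated dKO females stood apart, with a median correlation of 0.920 with the other arrays, against 0.956 to 0.971 for the rest. Its 6 measured hepatocyte markers averaged 3.83 on the log2 scale, against 5.83, 6.19 and 6.70 in the 3 remaining replicates, while arrays of the other groups had 6.24 to 7.0. Its markers of dividing cells were the highest of all arrays, at 0.25. Most results on treated dKO females are therefore given with and without it. In bulk liver, fewer cells of a type and less RNA per cell cannot be told apart.

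The hepcidin genes had the widest changes of the set over the 9 comparisons, and Id1 and Bmp6 followed. A gene is said to have risen or fallen where limma's Benjamini-Hochberg adjusted p, over all 19287 genes of a comparison, was below 0.05, and differences are log2 fold changes ± SE. Between dKO and wild type, 1 of 10 members rose and 0 fell in untreated females, where 9.76% of all genes differed (5.16% higher and 4.59% lower). In treated females 1 rose and 2 fell, beside 29.7% of all genes (13.5% and 16.3%). In treated males 2 rose and 2 fell, beside 25.3% (14.5% and 10.8%).

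Between the sexes, 1 member was lower in males among treated wild types, beside 6.11% of all genes (3.27% higher and 2.85% lower). Among treated dKO 3 members were lower in males, beside 20.5% (12.4% and 8.05%). With treatment 2 rose and 1 fell in wild-type females, beside 17.2% (8.47% and 8.72%). In dKO females 2 rose and 4 fell, beside 37.8% (16.3% and 21.5%), the most members called in any comparison. The sex by genotype difference passed upwards for 2 members and downwards for 1, beside 12.6% of all genes (7.32% and 5.25%). The genotype by treatment difference passed in limma's fit for 0 members, beside 5.08% (2.47% and 2.61%), and 2 members, Hamp and Hamp2, had an unadjusted p below 0.05. The members' median was -0.45 for treatment in dKO females, against -0.07 over all genes, and 0.32 against -0.04 for genotype in untreated females.

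On each slide the groups did not fall evenly over the 4 array positions. All treated wild-type males were at position 1 and all treated dKO females at position 4. With position as a covariate, the genes called between genotypes went from 5737 to 43 in treated females and from 4875 to 208 in treated males, and the members called from 3 to 0 and from 4 to 0. Adjusted p was then 0.710 for Hamp, 0.816 for Tfr2 and 0.613 for Id1 in treated females. In treated males it was 0.473 for Hamp2, 0.188 for Trf, 0.581 for Bmp6 and 0.491 for Hfe. For treatment in dKO females the genes called went from 7287 to 2401 and the members from 6 to 2, Hamp and Id1. Between the genotypes of treated mice, where no wild-type and dKO arrays shared a position, position and group cannot be told apart.

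**Figure D1:**
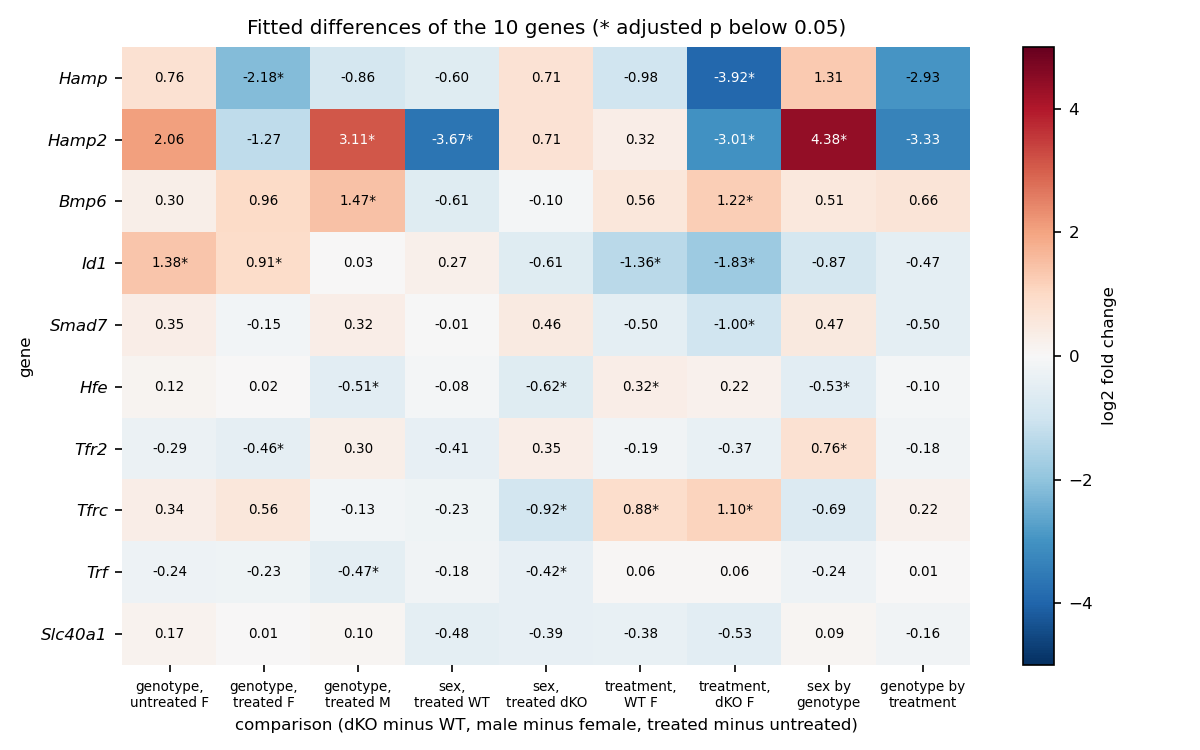
Fitted log2 fold changes of the 10 genes (rows) in the 9 comparisons (columns), with colour from blue (lower) to red (higher) and an asterisk where adjusted p was below 0.05. The extremes are the hepcidin genes, with Hamp at -3.92 for treatment in dKO females and Hamp2 at 4.38 for the sex by genotype difference, while Slc40a1 has no asterisk in any column.

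Hamp, the hepcidin that acts on ferroportin, fell with treatment in dKO females and ended lower there than in treated wild-type females. Its levels were 6.26, 6.62, 5.41 and 6.32 in untreated wild-type females. In untreated dKO females they were 7.35, 7.31, 5.98 and 7.0. These 2 groups overlapped. Treated wild-type females had 4.66, 5.85, 4.99 and 5.18, and treated dKO females 3.98, 0.21, 4.43 and 3.34. Every treated dKO female was below every treated wild-type female and every untreated dKO female, and replicate 2 was far below the other three. Treated males had 4.73, 4.85, 4.10 and 4.6 in wild type and 3.23, 4.70, 3.18 and 3.71 in dKO, with overlap.

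The fall of Hamp with treatment in dKO females was -3.92 ± 0.63 (15.1-fold, adjusted p = 1.54e-04). Without replicate 2 it was -2.99 ± 0.40 (adjusted p = 5.99e-05). In wild-type females the same treatment gave -0.98 ± 0.63 (95% interval -2.29 to 0.32, adjusted p = 0.304), which did not pass. The difference between these 2 responses was -2.93 ± 0.88 (adjusted p = 0.0586). It passed in 3 of 16 fits that each left out 1 array. These were without replicate 2 (-2.01 ± 0.55, adjusted p = 0.0467), replicate 1 (-3.27, adjusted p = 0.0417) or replicate 3 (-3.41, adjusted p = 0.0145) of the treated dKO females. Over all 29 alternatives it passed in 6, with adjusted p up to 0.557.

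Among treated females dKO livers had -2.18 ± 0.63 (4.52-fold lower, adjusted p = 0.0133), and -1.25 ± 0.40 without replicate 2 (adjusted p = 0.0342). Fitted on these 2 groups alone, with replicate 2, the difference did not pass (adjusted p = 0.136). Hepatocyte markers moved with Hamp: 3 of 6 measured were lower and 0 higher in treated dKO females against wild type (median -1.25) and likewise with treatment in dKO females (median -1.23). Without replicate 2 there were 2 lower (median -0.56) and 3 lower (median -0.54). Their part in the Hamp results was not tested. In untreated females the dKO difference was 0.76 ± 0.63 and in treated males -0.86 ± 0.63, neither of which passed (adjusted p = 0.494 and 0.346). Sex gave -0.60 ± 0.63 in treated wild types and 0.71 ± 0.63 in treated dKO (-0.21 without replicate 2), again without passing. From low to high the groups ran treated dKO females, dKO males, wild-type males, wild-type females, untreated wild type and untreated dKO. The lowest 2 groups differed by less than their spread (0.71, against an SD of 1.90).

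**Figure D2:**
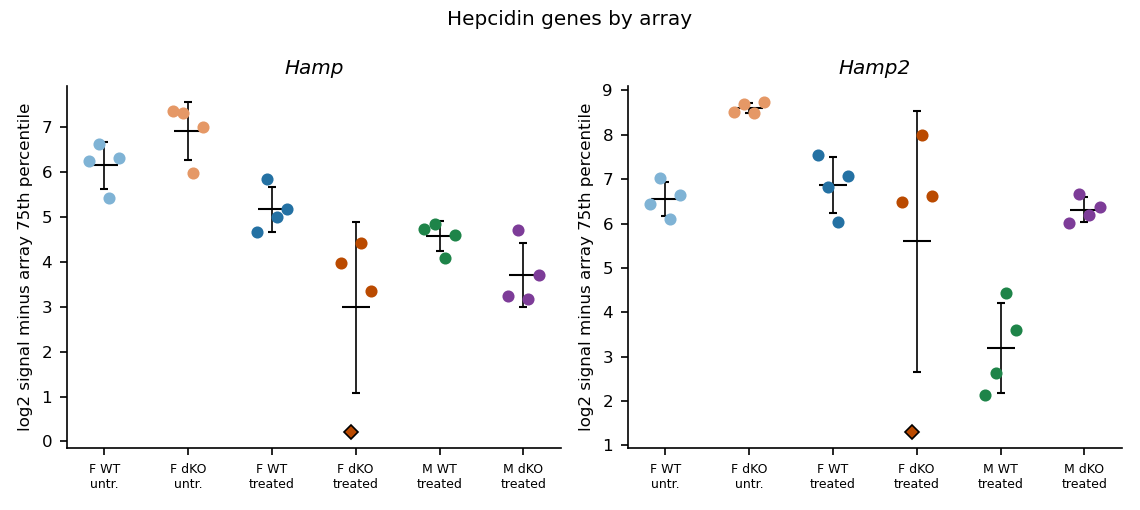
Levels of Hamp and Hamp2 (log2 signal minus the array's 75th percentile) for 4 arrays in each of 6 groups, F female and M male, with the mean and SD in black and a diamond for replicate 2 of the treated dKO females. Hamp has its lowest group means in treated dKO, whereas Hamp2 is lowest in treated wild-type males (2.15 to 4.43), apart from the diamond at 1.31.

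Hamp2 was lower in males than in females of treated wild type, and higher in dKO males than in wild-type males. In treated dKO the sexes did not differ by a margin that passed. Treated wild-type males had 2.15, 2.64, 4.43 and 3.61, and treated wild-type females 7.54, 6.82, 6.05 and 7.08. The groups were far apart. Treated dKO males had 6.01, 6.68, 6.19 and 6.36, all within the range of the wild-type females or just below it, and treated dKO females 6.48, 1.31, 7.99 and 6.63. Untreated females had 6.44, 7.02, 6.10 and 6.64 in wild type and 8.53, 8.69, 8.50 and 8.73 in dKO, with every dKO female higher.

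In treated wild type Hamp2 was 12.7-fold lower in males (-3.67 ± 0.88, adjusted p = 0.0157). That call was lost without wild-type treated female replicate 1 (-3.44, adjusted p = 0.0527). Since Hamp2 was included as a gene of known sex difference, its direction here is a check rather than a finding. In treated dKO males minus females was 0.71 ± 0.88 (95% interval -1.13 to 2.55), or -0.72 ± 0.45 without replicate 2, neither of which passed. In treated males Hamp2 was 8.61-fold higher in dKO than in wild type (3.11 ± 0.88, adjusted p = 0.0132). With position as a covariate that call was lost (adjusted p = 0.473). In treated females the dKO difference was -1.27 ± 0.88 (0.16 ± 0.45 without replicate 2), which did not pass.

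The difference of the genotype effect between males and females was tested directly and was 4.38 ± 1.25 for Hamp2 (adjusted p = 0.0271). Without replicate 2 of the treated dKO females it was 2.95 ± 0.61 (adjusted p = 0.00574). It missed the threshold without wild-type male replicate 2 (4.19, adjusted p = 0.0537), dKO male replicate 2 (4.26, adjusted p = 0.0508) or treated wild-type female replicate 1 (4.15, adjusted p = 0.0528). It also missed in a fit of these groups alone (adjusted p = 0.0851). For Hamp the same difference was 1.31 ± 0.88 (adjusted p = 0.344), and 0.39 ± 0.55 without replicate 2 of the treated dKO females.

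In untreated females the higher Hamp2 of the dKO, 2.06 ± 0.88 or 4.17-fold, did not pass in the fit that shares 1 spread over all groups (adjusted p = 0.150). Fitted on the untreated groups alone it passed (adjusted p = 8.85e-04). Treatment lowered Hamp2 in dKO females by -3.01 ± 0.88 (adjusted p = 0.0114), and by -1.58 ± 0.45 without replicate 2 (adjusted p = 0.0129). With all arrays, that call was lost in a fit of these 2 groups alone (adjusted p = 0.123) and with position as a covariate (adjusted p = 0.141). In wild-type females treatment gave 0.32 ± 0.88. The difference of these responses was -3.33 ± 1.25 (adjusted p = 0.126). Without replicate 2 of the treated dKO females it was -1.90 ± 0.61 and did not pass (adjusted p = 0.0873), and without replicate 3 it was -4.13 and passed (adjusted p = 0.0257). Of 16 fits that each left out 1 array, only the last of these passed. The authors' deposited table gives signed folds for Hamp2 of 9.63 for dKO against wild type in treated males and 12.9 for females against males in treated wild type.

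Bmp6, the ligand that induces hepcidin, rose in treated dKO males, and in treated dKO females it rose once replicate 2 was left out. Its probe lies at chr13:38591479-38591538. Treated wild-type females had -0.94, -0.88, -1.29 and -1.02, and treated dKO females 1.09, -2.17, 0.61 and 0.21. Treated males had -0.93, -1.91, -2.12 and -1.62 in wild type and -0.04, -0.51, 0.02 and -0.15 in dKO. Untreated females had -1.77, -1.45, -1.56 and -1.57 in wild type and -1.42, -1.33, -1.08 and -1.33 in dKO, a narrow band with the dKO just above. Apart from replicate 2, which was the lowest of all 24 arrays, every treated dKO array exceeded every other array.

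In treated males Bmp6 rose 2.78-fold in dKO (1.47 ± 0.44, adjusted p = 0.0169), and by 1.31 (adjusted p = 0.0569) without wild-type male replicate 3. In treated females the difference was 0.96 ± 0.44 (adjusted p = 0.102), and without replicate 2 it was 1.66 ± 0.23 (adjusted p = 4.58e-05). With treatment Bmp6 rose in dKO females by 1.22 ± 0.44 (adjusted p = 0.0325), and by 1.92 ± 0.23 without replicate 2 (adjusted p = 1.72e-05). That call with all arrays was lost on leaving out treated dKO female replicate 1, 3 or 4 or untreated dKO female replicate 1, 2 or 4 (0.84 to 1.21, adjusted p 0.0618 to 0.130).

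In wild-type females treatment gave 0.56 ± 0.44 for Bmp6 (adjusted p = 0.417), although those groups did not overlap. Fitted on these 2 groups alone it passed (0.56 ± 0.12, adjusted p = 0.0207). The rise in dKO females, fitted on its own 2 groups, did not (1.22 ± 0.64, adjusted p = 0.196). The genotype by treatment difference was 0.66 ± 0.62 (adjusted p = 0.581), and without replicate 2 it was 1.36 ± 0.31 (adjusted p = 0.0190). Males minus females in treated dKO was -0.10 ± 0.44, and -0.80 ± 0.23 (adjusted p = 0.0255) without replicate 2. A second, dimmer Bmp6 probe was above background on 4 of 4 treated dKO males but on only 1 of 4 treated wild-type males, so no fold is given for it. Of the 12 endothelial markers, 0 rose and 7 fell in treated dKO females against wild type, with a median of -0.50 (6 fell without replicate 2, median -0.58), and 0 rose and 1 fell in treated males, with a median of -0.03. The summed level of those markers was 24.2 to 32.7 in treated dKO females and 33.1 to 51.7 in treated wild-type females. Of 8 stellate and fibroblast markers, 7 rose in treated dKO females (median 1.66, and 6 without replicate 2, median 1.44) and 4 in treated males (median 1.11). Of 8 bile duct markers, 7 rose in treated females (median 1.86, and 7 without replicate 2, median 2.0) and 7 in males (median 2.26). Replicate 2, the lowest array for Bmp6, had the highest stellate and fibroblast mean of all arrays (2.64). Its bile duct mean (0.17) was the lowest of its group. In untreated dKO females 3 of 8 stellate and fibroblast markers rose (median 0.75), and 5 of 8 bile duct markers rose and 1 fell (median 1.80). Bmp6 there had 0.30 ± 0.44 and did not pass (adjusted p = 0.727). The part of these cell types in the Bmp6 result was not tested.

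Id1, an inhibitor of DNA binding that BMP and SMAD signals induce, fell with treatment in both genotypes and exceeded wild type in dKO females, untreated and treated. Its probe lies at chr2:152563036-152563095. Untreated females had 1.61, 1.94, 1.57 and 1.92 in wild type and 3.38, 3.86, 2.22 and 3.09 in dKO. Treated females had 0.02, 0.70, 0.48 and 0.40 in wild type and 1.75, 1.25, 0.92 and 1.31 in dKO. None of these pairs of groups overlapped by genotype or by treatment. Treated males had 0.46, 0.94, 0.62 and 0.66 in wild type and 0.86, 0.53, 0.67 and 0.73 in dKO, which overlapped.

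The dKO rise of Id1 was 1.38 ± 0.25 in untreated females (2.60-fold, adjusted p = 0.00101) and 0.91 ± 0.25 in treated females (adjusted p = 0.00938, and 0.93 without replicate 2). In treated males it was 0.03 ± 0.25 (95% interval -0.48 to 0.54). The difference between the sexes in this effect, -0.87 ± 0.35, did not pass (adjusted p = 0.0997, and -0.90 without replicate 2). Of 16 fits that each left out 1 array, 1 passed, without replicate 3 of the treated dKO females (-1.0, adjusted p = 0.0469). Treatment lowered Id1 by -1.36 ± 0.25 in wild-type females (adjusted p = 9.79e-04) and by -1.83 ± 0.25 in dKO females (adjusted p = 3.28e-05, and -1.81 without replicate 2). The difference of these responses did not pass (-0.47 ± 0.35, 95% interval -1.20 to 0.25, adjusted p = 0.462). The second Id1 probe, which overlaps the first, gave 1.30 ± 0.25 in untreated and 0.88 ± 0.25 in treated females.

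Smad7, the inhibitor in the same pathway, moved less. Its levels in untreated females were -0.39, -0.34, -0.99 and -0.34 in wild type and -0.31, 0.65, -0.96 and -0.05 in dKO. Treated females had -0.72, -0.93, -1.55 and -0.88 in wild type and -0.96, -1.58, -1.02 and -1.12 in dKO, and treated males ran from -1.25 to -0.52. Treated and untreated dKO females met at -0.96 without crossing, and treatment lowered Smad7 there by -1.0 ± 0.25 (adjusted p = 0.00449, and -0.87, adjusted p = 0.0207, without replicate 2). With all arrays, that call was lost in a fit of these 2 groups alone (adjusted p = 0.0600) and with position as a covariate (adjusted p = 0.0783). In wild-type females the fall of -0.50 ± 0.25 did not pass (adjusted p = 0.184), and the difference between the responses was -0.50 ± 0.36 (adjusted p = 0.453).

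**Figure D3:**
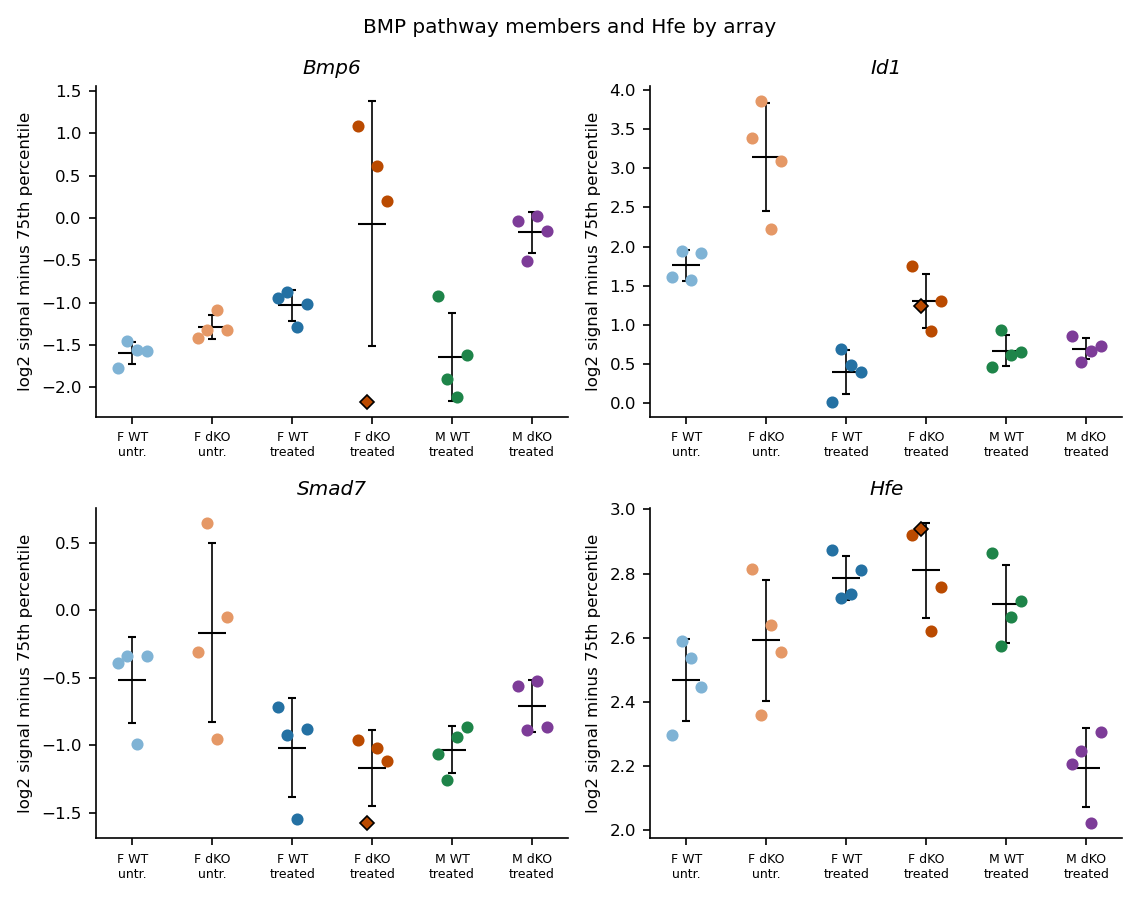
Levels of Bmp6, Id1, Smad7 and Hfe (log2 signal minus the array's 75th percentile) for 4 arrays per group, with mean and SD in black and a diamond for replicate 2 of the treated dKO females. Bmp6 is high in the treated dKO groups except for the diamond at -2.17, and Id1 is highest in untreated dKO females (2.22 to 3.86).

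Hfe, the haemochromatosis protein, was lowest in treated dKO males. Its probe at chr13:23795922-23795981 gave 2.21, 2.25, 2.02 and 2.31 there and 2.87, 2.57, 2.67 and 2.71 in treated wild-type males. Treated females had 2.87, 2.72, 2.74 and 2.81 in wild type and 2.92, 2.94, 2.62 and 2.76 in dKO. No treated dKO male reached any other treated array. Untreated females had 2.30, 2.59, 2.54 and 2.45 in wild type and 2.81, 2.36, 2.64 and 2.56 in dKO.

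In treated males Hfe was lower in dKO (-0.51 ± 0.10, 1.42-fold, adjusted p = 0.00107), against a difference of 0.02 ± 0.10 in treated females. The call in males was lost with position as a covariate (adjusted p = 0.491). The genotype difference in males minus that in females was -0.53 ± 0.15 (adjusted p = 0.0226, and -0.49, adjusted p = 0.0450, without replicate 2 of the treated dKO females). Males were lower than females in treated dKO by -0.62 ± 0.10 (adjusted p = 5.16e-04, and -0.57 without replicate 2). Hfe rose with treatment in wild-type females by 0.32 ± 0.10 (adjusted p = 0.0395). That call was lost without any treated wild-type female or without untreated wild-type female replicate 1 or 4 (0.26 to 0.34, adjusted p 0.0505 to 0.128). It was also lost with normexp background (adjusted p = 0.246) or median centring (adjusted p = 0.194). Over all 21 alternatives it passed in 7. A second, dimmer Hfe probe on the same strand gave -0.91 ± 0.26 for dKO in treated males (adjusted p = 0.0150) and -1.34 ± 0.37 for the difference between the sexes (adjusted p = 0.0238). For treatment in wild-type females it gave 0.37 ± 0.26 and did not pass (adjusted p = 0.370).

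Tfr2, the hepatocyte's transferrin sensor, differed by small amounts. Treated dKO females had 6.08, 5.28, 6.36 and 5.86 and treated wild-type females 6.30, 6.55, 6.21 and 6.37, with replicate 2 again the lowest. Treated males had 6.03, 5.77, 6.05 and 5.94 in wild type and 6.09, 6.45, 6.16 and 6.29 in dKO, the dKO higher in each array. Untreated females had 6.58, 6.55, 6.60 and 6.48 in wild type and 6.25, 6.43, 6.08 and 6.30 in dKO, the dKO lower in each.

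In treated females Tfr2 was lower in dKO (-0.46 ± 0.16, adjusted p = 0.0317). Without replicate 2 the difference was -0.26 ± 0.12 and did not pass (adjusted p = 0.137). It also missed the threshold without treated wild-type female replicate 1, 2 or 4 or treated dKO female replicate 4 (-0.48 to -0.40, adjusted p 0.0523 to 0.0945). Quantile normalization gave -0.17 (adjusted p = 0.232) and normexp background -0.31 (adjusted p = 0.157). The call was also lost with no filter (adjusted p = 0.0530), these groups fitted alone (0.204) or position as a covariate (0.816). The authors' deposited table gives a signed fold of -1.14 for Tfr2 in this comparison. The genotype effect differed between males and females by 0.76 ± 0.22 (adjusted p = 0.0299), and by 0.56 ± 0.16 without replicate 2 (adjusted p = 0.0387). Leaving out replicate 2 or 4 of the wild-type males, of the dKO males or of the treated wild-type females, or replicate 4 of the treated dKO females, made it miss the threshold (0.69 to 0.76, adjusted p 0.0516 to 0.0643). Over all 29 alternatives it passed in 17.

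Tfrc, the receptor that takes up transferrin and is abundant in dividing cells, rose with treatment in females. Untreated wild-type females had -1.49, -1.64, -0.81 and -1.37 and treated ones -0.46, -0.83, -0.08 and -0.41, which crossed at 1 array. Untreated dKO females had -1.56, -0.30, -1.09 and -0.99 and treated ones -0.58, 0.66, 0.11 and 0.26. Treated males had -1.22, -0.73, -0.14 and -0.62 in wild type and -0.58, -1.23, -0.65 and -0.77 in dKO, and these overlapped. The probe lies at chr16:32632255-32632314.

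The rise of Tfrc with treatment was 1.1 ± 0.28 in dKO females (2.14-fold, adjusted p = 0.00519, and 0.92, adjusted p = 0.0250, without replicate 2) and 0.88 ± 0.28 in wild-type females (adjusted p = 0.0374). The wild-type call was lost without treated replicate 1, 3 or 4 or untreated replicate 1, 2 or 4 (0.76 to 0.89, adjusted p 0.0634 to 0.123). In treated dKO males Tfrc was lower than in females by -0.92 ± 0.28 (adjusted p = 0.0277). Without treated dKO female replicate 2 this was -0.74 (adjusted p = 0.110), and it also did not pass without female replicate 4 or male replicate 2 or 4 (-0.93 to -0.78, adjusted p 0.0532 to 0.0941). Of the 10 markers of dividing cells, 9 rose and 0 fell with treatment in dKO females, 0 rose and 0 fell in wild-type females, and 8 were lower in treated dKO males than in females. Without replicate 2, 9 rose with treatment in dKO females and 5 were lower in dKO males. In treated wild type 9 were higher in males (median 2.34), where Tfrc had -0.23 ± 0.28. In dKO against wild type 9 rose in treated females (median 2.37) and 7 fell in treated males (median -1.68). There Tfrc had 0.56 ± 0.28 and -0.13 ± 0.28. None of these 3 Tfrc differences passed (adjusted p 0.147 to 0.784). The part of dividing cells in the Tfrc result was not tested.

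Trf, the plasma iron carrier made by hepatocytes, was steady to within 1 log2 unit over all arrays, from 8.15 to 8.97. Treated dKO males had 8.15, 8.19, 8.19 and 8.22, below every other array. The fall against wild-type males, at 8.56, 8.81, 8.53 and 8.74, was -0.47 ± 0.09 (1.39-fold, adjusted p = 5.57e-04). Against treated dKO females, at 8.65, 8.51, 8.72 and 8.56, it was -0.42 ± 0.09 (adjusted p = 0.00297, and -0.46 without replicate 2). In females the dKO difference was -0.24 ± 0.09 untreated and -0.23 ± 0.09 treated, and neither passed (adjusted p = 0.0985 and 0.0550; the latter was -0.20 without replicate 2). It passed untreated without wild-type replicate 2 (-0.30, adjusted p = 0.0495), and treated without wild-type replicate 1 (-0.29, adjusted p = 0.0348) or dKO replicate 3 (-0.27, adjusted p = 0.0319). Over 21 alternatives of processing or arrays it passed in 1 untreated and 5 treated. There the untreated difference ran from -0.30 to -0.07 and the treated one from -0.33 to -0.0026. The authors' deposited signed folds for Trf are -1.053 untreated and -1.002 treated. The sex by genotype difference of -0.24 ± 0.13 did not pass (adjusted p = 0.213).

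Slc40a1, the exporter that hepcidin removes at the protein level, did not pass in any comparison of the fit over all groups. Its levels ran from 3.23 to 4.85. Group means were 4.49 ± 0.30 (SD, n = 4) in untreated wild-type and 4.66 ± 0.18 in untreated dKO females, 4.11 ± 0.51 and 4.12 ± 0.21 in treated females, and 3.63 ± 0.45 and 3.73 ± 0.39 in treated males. The largest difference was treatment in dKO females, at -0.53 ± 0.25 (95% interval -1.05 to -0.02, adjusted p = 0.0965), where the groups did not overlap. Without replicate 2 it was -0.59 ± 0.27 (adjusted p = 0.109). With all arrays it passed when these 2 groups were fitted alone (-0.53 ± 0.15, adjusted p = 0.0379). It also passed with a replicate block (adjusted p = 0.0266). Between genotypes Slc40a1 differed by 0.17 ± 0.25 untreated, and after treatment by 0.01 ± 0.25 in females and 0.10 ± 0.25 in males. Arrays measure RNA, and ferroportin protein was not measured here.

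**Figure D4:**
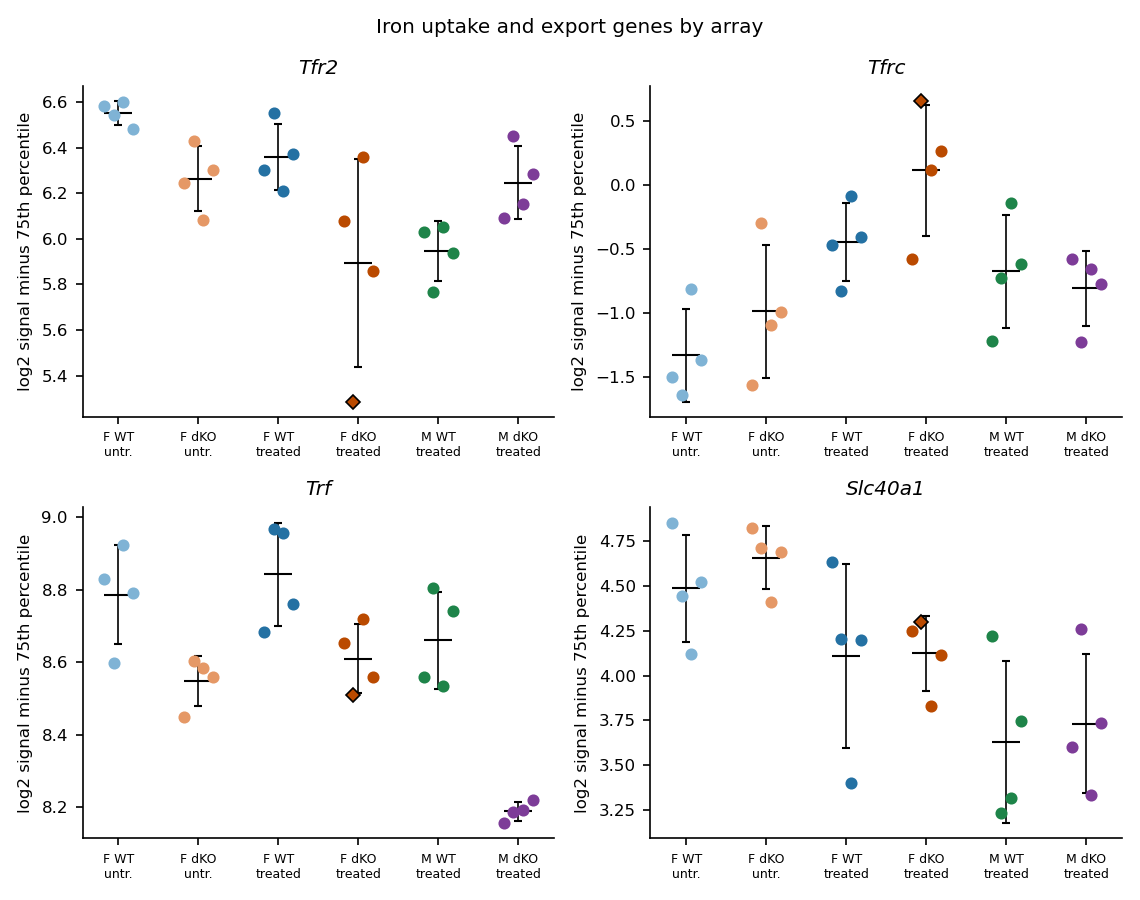
Levels of Tfr2, Tfrc, Trf and Slc40a1 (log2 signal minus the array's 75th percentile, with a separate vertical scale for each gene) for 4 arrays per group, with mean and SD in black and a diamond for replicate 2 of the treated dKO females. Trf in treated dKO males lies at 8.15 to 8.22, below all other arrays, and Slc40a1 runs from 3.23 to 4.85.

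**Figure D5:**
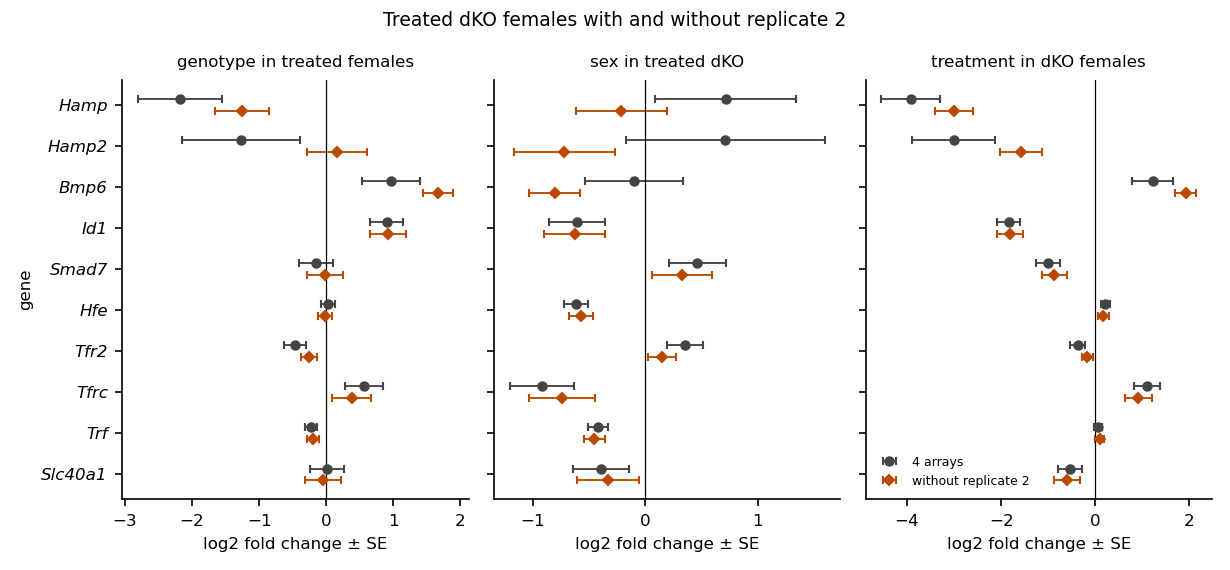
Fitted log2 fold changes ± SE of the 10 genes in the 3 comparisons between pairs of groups that involve treated dKO females, with all 4 arrays (grey circles) and without replicate 2 (orange diamonds). Hamp stays below 0 for genotype and treatment, Hamp2 for genotype moves from -1.27 to 0.16, and Bmp6 for genotype from 0.96 to 1.66.

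Among 26 other measured genes of BMP and SMAD control of hepcidin (27 listed), 3 rose and 0 fell in untreated dKO females, beside 9.76% of all genes. The 26 had a median of 0.14 against -0.04 over all genes. Those that rose were the follistatin Fst, a ligand trap (2.18 ± 0.57), and the Id1 relatives Id4 (1.11 ± 0.23) and Id2 (0.62 ± 0.17). In treated dKO females, beside 29.7% of all genes, 1 rose and 6 fell against wild type, 1 and 4 without replicate 2. Among them were the ligands Bmp2 (-1.46 ± 0.24) and Bmp7 (-1.81 ± 0.47) and Tmprss6 (-0.53 ± 0.13), the protease that cuts hemojuvelin, at -1.31, -1.39 and -0.42 without replicate 2. The receptor Bmpr1a rose by 0.27 ± 0.09 but not without replicate 2 (adjusted p = 0.0756).

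In treated dKO males 10 of these 26 genes rose and 1 fell, beside 25.3% of all genes, with a median of 0.26 against 0.05. The pseudoreceptor Bambi rose by 1.45 ± 0.23, Bmp5 by 1.02 ± 0.16 and Fgl1, a hepatocyte inhibitor of BMP signals, by 0.90 ± 0.25, while hemojuvelin (Hjv), the BMP co-receptor needed for hepcidin, fell by 0.91 (adjusted p = 0.00388). Hjv was also lower in males than in females among treated dKO (-1.04 ± 0.22, and -0.79 without replicate 2). With treatment in dKO females 2 rose and 10 fell (0 and 8 without replicate 2), beside 37.8% of all genes. Among those that fell were Bmp2 (-1.57 ± 0.24), Bmp7 (-2.68 ± 0.47) and Id2 (-1.24 ± 0.17), at -1.41, -2.26 and -1.17 without replicate 2. Hjv rose there by 0.69 ± 0.22, and by 0.44 without replicate 2 (adjusted p = 0.0772). In wild-type females, beside 17.2% of all genes, 0 rose and 3 fell, Bmpr1a, Smad5 and Smad4, by 0.29 to 0.31. Over 21 alternatives of processing or arrays these falls passed in 9, 7 and 17.

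Between the sexes in treated wild type, 0 of these genes were higher and 3 lower in males, beside 6.11% of all genes. The 3 were Bmp5 (-0.78 ± 0.16), Id2 (-0.64 ± 0.17) and Fgl1 (-0.98 ± 0.25). In treated dKO 7 were higher and 2 lower in males (3 and 2 without replicate 2), beside 20.5% of all genes. Bmp2 was higher by 1.33 ± 0.24, Bmp7 by 1.63 ± 0.47 and Smad4 by 0.36 ± 0.08. Without replicate 2 Bmp2 was higher by 1.17 and Smad4 by 0.31. Bmp7 there did not pass without replicate 2 (1.21, adjusted p = 0.0924).

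Of 25 measured genes of iron transport and storage (26 listed), 5 rose and 7 fell in treated dKO females (5 and 4 without replicate 2), beside 29.7% of all genes. The 25 had a median of -0.08 against -0.07 over all genes. The copper ferroxidase Heph rose by 2.93 ± 0.52, Meltf, a transferrin relative on the membrane, by 3.92 ± 0.89, and Steap1, of a metalloreductase family, by 2.92 ± 0.52. Without replicate 2 these were 2.27, 2.83 and 2.58. Meltf was above background on 3 and Steap1 on 1 of the 4 wild-type arrays, so the fold of Steap1 rests on a group mostly at background. The mitochondrial iron importer Slc25a37 fell by 0.88 (adjusted p = 6.31e-05), and by 0.91 without replicate 2. In treated dKO males 5 rose and 5 fell, beside 25.3% of all genes. Steap1 (2.78 ± 0.52), Cybrd1 (1.71 ± 0.57) and Steap2 (1.48 ± 0.29) were among those that rose, and ferritin light chain Ftl1 (-0.84 ± 0.17) among those that fell. Steap1 was above background on 2 and Cybrd1 on 1 of the 4 wild-type male arrays, so their folds are against groups at or near background.

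With treatment, Lcn2, which binds iron-carrying siderophores, rose in dKO females by 4.09 ± 0.97 and Heph by 2.57 ± 0.52, at 3.81 and 1.90 without replicate 2. Meltf passed too, at 4.5 ± 0.89 (3.42 without it), but was above background on only 1 of 4 untreated dKO arrays. Steap1 was at least 3.86-fold higher there, since no untreated dKO array was above background, the floor being each array's lowest signal well above background or the probe's own if higher. In all 5 of 25 genes rose and 5 fell (6 and 3 without replicate 2), beside 37.8% of all genes. In wild-type females 3 rose, beside 17.2% of all genes, with Slc11a1, a macrophage metal transporter, at 1.40 ± 0.45 and ceruloplasmin (Cp) at 0.48 ± 0.14. There 5 of 11 macrophage markers rose and 0 fell (median 1.1), and their part in the Slc11a1 result was not tested. In untreated females, beside 9.76% of all genes, 0 rose and 2 fell in dKO, Ncoa4 (-0.34 ± 0.10) and Slc25a37 (-0.46 ± 0.13). Over 21 alternatives of processing or arrays these 2 falls passed in 5 and 10. Steap2 alone was lower in males among treated wild types (-1.20 ± 0.29), beside 6.11% of all genes that differed there. In treated dKO 5 genes were higher and 4 lower in males (2 and 1 without replicate 2), beside 20.5% of all genes. Meltf had -4.32 ± 0.89 (-3.24 without replicate 2). Steap3 had -1.31 ± 0.38 and did not pass without replicate 2 (adjusted p = 0.0514). Both were above background on only 2 of the 4 male arrays. Slc25a37 was higher by 0.42 ± 0.13 with its brightest probe but lower by 0.76 as the mean of its probes, so its probes disagree.

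Of 19 genes of heme synthesis and turnover, in dKO against wild type 0 rose and 2 fell in untreated females, beside 9.76% of all genes. After treatment 1 rose and 6 fell in females (1 and 4 without replicate 2), beside 29.7%, and 0 rose and 4 fell in males, beside 25.3%. The medians were -0.18, -0.27 and -0.23. Those that fell in treated males included the synthesis enzyme Uros (-0.94 ± 0.13), hemopexin (Hpx, -0.94 ± 0.23), which carries heme in plasma, and the biliverdin reductase Blvrb (-1.17 ± 0.30). Abcb6, a porphyrin transporter, was lower in untreated (-0.74 ± 0.12) and treated (-0.47 ± 0.12, and -0.36 without replicate 2) dKO females, as was haptoglobin (Hp) in untreated ones (-0.56 ± 0.16). Cd163, the macrophage receptor for haemoglobin bound to haptoglobin, fell in treated dKO females by 2.70 (adjusted p = 0.00105), and by 2.31 without replicate 2. Of 11 macrophage markers 3 rose and 0 fell there (median 0.14), and 0 rose and 0 fell without replicate 2 (median -0.09).

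With treatment the heme enzyme Cpox fell in both wild-type (-1.10 ± 0.24) and dKO (-1.22 ± 0.24) females. Heme oxygenase Hmox1 rose in wild type (1.22 ± 0.32) and Abcb6 fell (-0.63 ± 0.12), 2 rising and 2 falling in all, beside 17.2% of all genes. In dKO females 4 rose and 6 fell (3 and 4 without replicate 2), beside 37.8% of all genes. Cd163 had -3.26 ± 0.54, Hp 0.72 ± 0.16 and the heme exporter Flvcr1 0.65 ± 0.18. Without replicate 2 these were -2.87, 0.78 and 0.45, and Cpox was -1.09. Among treated dKO, males exceeded females in Alas1, the rate-limiting enzyme (1.30 ± 0.25), and Fech (0.66 ± 0.18), and were lower in Uros (-0.55 ± 0.13). In all 4 genes were higher and 2 lower (1 and 1 without replicate 2), beside 20.5% of all genes. Without replicate 2 Alas1 was 0.98 and Uros -0.63, and Fech did not pass (0.48, adjusted p = 0.0738). In treated wild type only Blvra was lower in males (-0.27 ± 0.08), beside 6.11% of all genes that differed there. The Blvra call held in 7 of 21 alternatives of processing or arrays.

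The IL-6 and STAT3 acute phase genes, the inflammatory arm of hepcidin control, included many that rose with treatment in both genotypes, where Hamp had -0.98 and -3.92. Of 19, 8 rose and 1 fell in wild-type females, beside 17.2% of all genes. In dKO females 9 rose and 1 fell (7 and 0 without replicate 2), beside 37.8%. The medians were 0.46 and 0.55 against -0.06 and -0.07 over all genes. Serum amyloid Saa1 rose by 2.89 ± 0.70 in wild type and 2.63 ± 0.70 in dKO, Saa2 by 2.89 ± 0.68 and 2.48 ± 0.68, and the orosomucoid Orm3 by 2.58 ± 0.51 and 2.78 ± 0.51. Without replicate 2 the dKO values were 2.54, 2.40 and 2.60. Saa3 rose by 3.48 ± 0.99 and 2.81 ± 0.99, the latter not without replicate 2 (2.47, adjusted p = 0.0918).

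Between genotypes the acute phase counts were 2 of 19 in untreated females, beside 9.76% of all genes, 4 in treated females, beside 29.7%, and 4 in treated males, beside 25.3%. In untreated females Orm3 was higher in dKO (1.66 ± 0.51) and Serpina3n, a protease inhibitor, lower (-1.83 ± 0.35), 1 each way. Over 21 alternatives of processing or arrays Orm3 passed there in 8 and Serpina3n in 21. In treated females 3 rose and 1 fell (3 and 0 without replicate 2). In treated males 3 rose and 1 fell: the receptor Il6ra (1.47 ± 0.26), Itih4 (0.75 ± 0.19) and fibrinogen Fgg (0.50 ± 0.16) rose and Serpina3n fell by 0.99 (adjusted p = 0.0436). That Serpina3n call held in 10 of 21 alternatives. In treated dKO males, 1 gene was higher and 3 lower than in females, beside 20.5% of all genes. The lower ones were Orm3 (-2.35 ± 0.51), Orm2 (-1.87 ± 0.41) and Orm1 (-0.83 ± 0.23). Without replicate 2 these were -2.17, -1.74 and -0.90.

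Across the 24 arrays the members were compared in 6 pairs, with permutation p-values from 100000 resamples, adjusted over the 6. The resamples shuffled arrays across the groups. These p-values therefore do not separate links between genes from differences that the groups share. Hamp rose and fell with Id1 (r = 0.58, rho = 0.51, two-sided permutation p = 0.00282, adjusted 0.00423) and with Smad7 (r = 0.65, rho = 0.51, permutation p = 0.00110, adjusted 0.00260). Hamp and Hamp2 had r = 0.63 (rho = 0.60, permutation p = 0.00130, adjusted 0.00260) and Id1 and Smad7 r = 0.69 (rho = 0.39, permutation p = 2.60e-04, adjusted 0.00156). Hamp and Bmp6 had r = -0.25 (rho = -0.38, permutation p = 0.242). Tfrc and Slc40a1 had r = -0.41 (rho = -0.46, permutation p = 0.0460, adjusted 0.0552).

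Leaving out the 2 arrays farthest from the median of the first gene gave r of 0.69 for Hamp and Id1, 0.56 for Hamp and Smad7, 0.40 for Hamp and Hamp2 and 0.46 for Id1 and Smad7. It gave -0.58 for Hamp and Bmp6 and -0.57 for Tfrc and Slc40a1. As deviations from the group means the values were 0.29, 0.42, 0.76, 0.55, 0.71 and -0.49 for Hamp with Id1, Hamp with Smad7, Hamp with Hamp2, Id1 with Smad7, Hamp with Bmp6 and Tfrc with Slc40a1. None of these passed by permutation within groups (adjusted p 0.0933 to 0.238). Without replicate 2 of the treated dKO females, Hamp with Bmp6 went from 0.71 to 0.34 as deviations and from -0.25 to -0.58 over all arrays.

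The genes most like each main member over the 24 arrays, among 13534 bright on all of them, were found by Pearson's r as a description. For Hamp they were Znrd1as (0.94), Pgpep1 (0.93), Apol7a (0.92) and Dmgdh (0.92), the last a choline-degrading enzyme of mitochondria. For Hamp2 they were the histidine-degrading enzymes Hal (0.95) and Uroc1 (0.94), then Gypc (0.93) and Pigr (0.92). For Id1 they were Car2 (0.90), 1700061I17Rik (0.89), Ubald2 (0.89) and Unc45a (0.87), and for Bmp6 they were Susd2 (0.86), Plxna4 (0.85), Gsn (0.85) and Mmp11 (0.85). These arrays share their groups and replicate 2 of the treated dKO females, which is the lowest array for Hamp, Hamp2 and Bmp6.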

How the data were processed

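Liver RNA of 24 samples was amplified and hybridised to 1-colour Agilent arrays, per the labels' protocols. The intensity values are the authors' deposited scanner signals, background-subtracted by Feature Extraction 10.5.1.1 per the file headers (9.53 per the submitters' processing notes). The authors' deposited table of signed fold changes, a score with no error, was quoted and not tested.

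Here, log2 of the processed signal minus each array's 75th percentile over 43379 non-control spots was used, outlier spots left out. The filter kept 28048 of 41174 probes, those that rose well above background on 4 or more of the 24 arrays, and the brightest stood for its gene, giving 19287 genes. Names came from RefSeq for 28661 spots and from the files for 14718. One limma fit (limma 3.58.1, R 4.3.3) over 6 group means gave 9 comparisons, with Benjamini-Hochberg adjustment at 0.05. The fit was tested on simulated data. No count of reads exists for arrays, so precision is limited by 4 arrays per group. Figures and correlations used Python 3.11.15, SciPy 1.17.1 and matplotlib 3.10.9, and sequences Biopython 1.88.

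Members and lists were chosen with earlier results of these data known. Up to 4 genes per list and comparison were named, those with the largest change among genes past the threshold, detected on each array of the group where they were higher, with groups that did not overlap. Some genes that this rule picks are not reported here. For Hamp, Hamp2, Id1 and Bmp6 the 4 most similar genes were named. Alternatives were background correction, centring, quantile normalization, filters, probe choice, the groups fitted, replicate, slide and position as terms, and each array left out.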

Additional observations from a re-analysis of the deposited data

Results flagged for a closer look

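Smad7 in untreated wild-type female replicate 3 was -0.99, far from the other arrays of its group at -0.39 to -0.34. It was 1 of 60 sets of 4 arrays with such a gap, and chance gives about 1 in 20. The effect of genotype differed between treated males and females, by a test of the difference itself, for Hamp2 (4.38), Tfr2 (0.76) and Hfe (-0.53), as log2 differences. Without replicate 2 of the treated dKO females these were 2.95, 0.56 and -0.49.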

How the results depend on the processing

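Of 24 member calls, 6 held under every alternative: Id1 for genotype in untreated females and for treatment in either genotype, Trf and Hfe for sex in treated dKO, and Hamp for treatment in dKO females. All member differences, called or not, gave 2050 recomputed values. Among those of the 24 calls, none changed sign and 79 lost the call. Among those of the uncalled differences, 35 gained a call and 57 changed sign without passing. Position as a covariate kept 11 calls and fitting only the groups compared kept 15. With only the groups compared, 2 members were called in untreated females and 1 in treated females. With position, 0 were called between genotypes in treated females, 0 in treated males and 2 for treatment in dKO females. Quantile normalization gave 2 for sex in wild type. With normexp background or no filter, 1 was called for treatment in wild-type females, and no filter gave 1 for sex by genotype. Genotype by treatment gave 1 with the filter on all arrays, 2 with slide as a fixed block and 1 with slide as a random block. Leaving out 1 array gave 1 to 2, 2 to 4, 3 to 4, 0 to 1, 2 to 5, 1 to 3, 5 to 7, 1 to 4 and 0 to 2 members in the 9 comparisons, in the order reported. Correlations of deviations from group means no longer passed, at 0.293 for Hamp with Id1, 0.423 for Hamp with Smad7, 0.550 for Id1 with Smad7 and 0.762 for Hamp with Hamp2. Slc25a37 for sex in treated dKO turned to -0.76 as a mean of probes, and Serpina3n in treated males to 0.013 with position. With the replicate block Hfe lost its call for treatment in wild-type females (adjusted p = 0.0508) and Slc40a1 gained one in dKO females (0.0266). Deviations of same-numbered samples from their group means correlated at -0.348 to 0.341, with 5 of 28 values above 0.1. These values do not settle whether the numbers pair the samples. Over all genes, normexp background called 726 against 1882 in untreated females, 2564 against 4875 in treated males, 517 against 1179 and 2265 against 3950 between sexes in wild type and dKO, and 1885 against 3315 for treatment in wild type. Fitting only the groups compared called 2828 genes in untreated and 2098 in treated females, 1141 between dKO sexes and 4351 for treatment in dKO. The causes were not tested.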
